A study of Mus musculus with 4 samples.

Results

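The Toll-like receptor genes Tlr1 to Tlr9 and Cd180, whose product is a Toll-like receptor homologue, were followed in RNA sequencing of germ-free mouse colon. Members were the rows of the deposited count table that carry these 10 symbols, out of 24016 rows, and all 10 were found. The 4 libraries came from C57BL/6 mice aged 7 weeks: 1 from mice gavaged with Lactobacillus rhamnosus GG (LGG, a Gram-positive probiotic), 1 from mice gavaged with Escherichia coli (Gram-negative), 1 from mice gavaged with phosphate-buffered saline (PBS), and 1 from untreated mice. The labels give the same dose for both bacteria. They name no genetic change, and every group, controls included, was germ-free until the gavage. Colon pieces of 4 cm were frozen, in gavaged mice 4 h after the gavage, so each library is RNA of whole tissue, with epithelium, immune cells and muscle together. The labels give 4 mice for each gavaged group, do not give the number of untreated mice, and do not say whether several mice were pooled.

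Toll-like receptors are membrane proteins that bind microbial molecules through a horseshoe of leucine-rich repeats and signal through a cytoplasmic TIR domain to NF-kB and interferon regulatory factors. Tlr2 pairs with Tlr1 or Tlr6 at the cell surface to bind bacterial lipoproteins, Tlr4 binds lipopolysaccharide of Gram-negative bacteria with its co-receptor MD-2, and Tlr5 binds flagellin. Tlr3, Tlr7, Tlr8 and Tlr9 sit in endosomes, where they meet nucleic acids. Cd180 (RP105) has the repeats but no TIR domain, pairs with MD-1 (Ly86), and is best known from B cells and other antigen-presenting cells, where it modulates responses to lipopolysaccharide.

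Every condition had 1 library, so no difference has a replicate check, no test between conditions was possible, and all intervals cover counting error only. Total counts ran between 16289730 in the PBS library and 29899568 in the LGG library, and the 10 members took between 2263 and 4172 counts of each library. Counts of single genes are printed as deposited, while levels and ratios use them rounded to whole numbers. Levels are in CPM, read counts scaled to library size, and a difference was called past the size rule when the log2 ratio was at least 1 in size, its 95% counting interval excluded 0 and the mean over the 4 libraries was at least 1 CPM. Of the members, 9 reached that mean and Tlr8 did not; Tlr6, with the lowest mean above it, had 0.872 to 1.71 CPM, and Tlr8 had 0.249 to 0.551 CPM. Markers of colon epithelium were high in each library, for instance Krt8, a keratin, at 4447 to 5471 CPM, as the tissue label implies. The libraries also differed in markers of other tissues: 6 pancreatic acinar genes summed to 33.9 CPM in the LGG, 61.0 in the E. coli, 16.5 in the PBS library and 1.96 in the untreated library, 5 adipocyte genes to 84.5, 33.7, 64.7 and 93.8 CPM, and 4 mesothelium genes to 14.8, 10.3, 25.7 and 30.1 CPM. The 4 mesothelium genes were all past the size rule, lower, in E. coli against PBS and in E. coli against untreated. All 6 pancreatic genes were past it, higher, in E. coli against PBS and in each gavaged library against untreated. All 5 adipocyte genes were past it in LGG against E. coli, higher, and in E. coli against untreated, lower. In these comparisons between 0.36% and 2.35% of all tested rows were past the rule. The part of these differences in the results below was not tested. In whole tissue, fewer cells of a type and less RNA per cell cannot be told apart.

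Tlr1 was the most abundant member, and the family spread over a wide range in level per transcript length. Tlr1 had 19.3 CPM per kb in the LGG, 22.8 in the E. coli, 21.4 in the PBS library and 16 in the untreated library, a mean of 19.9. Tlr3, the receptor for double-stranded RNA, averaged 6.69 CPM per kb, Tlr4 6.02 and Tlr2 5.49, and the ranges of these neighbours over the 4 libraries overlapped. Tlr5 stood below them at a mean of 1.40 CPM per kb.

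A lower group followed, made of Cd180 (0.550 CPM per kb on average), Tlr9 (0.490), Tlr6 (0.479) and Tlr7 (0.350), whose neighbours also overlapped, and Tlr8 was last at 0.140. Some steps in the order had no overlap of ranges among the more abundant genes, namely between Tlr1 and Tlr3 (2.97-fold), between Tlr2 and Tlr5 (3.92-fold) and between Tlr5 and Cd180 (2.54-fold), and the step between Tlr7 and Tlr8 (2.5-fold) had none either. By level per length, Tlr1 lay above 82.9% of all rows of the table and Tlr8 above 32%. The rows below them include 4749, of the 24016, that were at 0 in all 4 libraries after rounding.

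**Figure D1:**
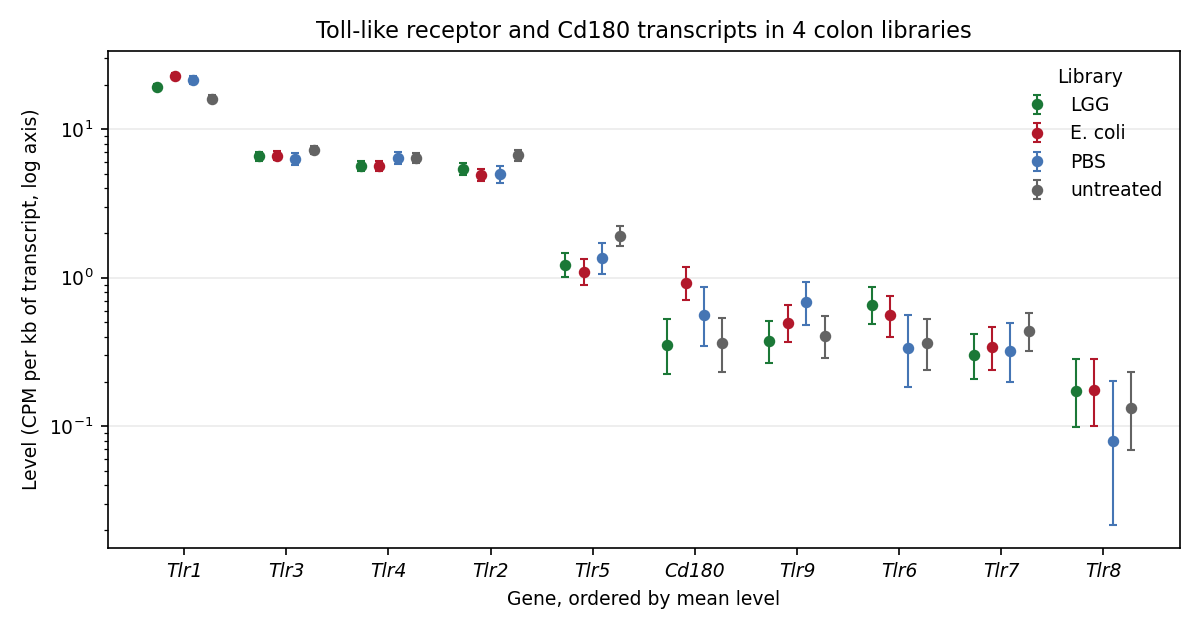
Level of each member per kb of transcript (CPM per kb, log axis) in the LGG, E. coli, PBS and untreated libraries, with exact 95% Poisson intervals of the counts. Tlr1 is highest in every library, Tlr3, Tlr4 and Tlr2 lie together near 6 CPM per kb, and Cd180 is highest in the E. coli library at 0.920.

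The lipoprotein receptors were unevenly represented. Tlr2, the partner shared by both pairs, had 15.3 CPM in the LGG, 14.0 in the E. coli, 14.2 in the PBS library and 19.0 in the untreated library. Its level in the untreated library was the highest of the 4, and the 3 gavaged libraries lay close together. The log2 ratio of Tlr2 was -0.31 (95% counting interval -0.49 to -0.13) in LGG against untreated, -0.43 (-0.62 to -0.25) in E. coli against untreated and -0.42 (-0.65 to -0.19) in PBS against untreated, comparisons that share the untreated library. Between bacteria and PBS its ratio was 0.11 for LGG and -0.02 for E. coli, with intervals that include 0.

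Tlr1, which forms the pair for triacylated lipoproteins with Tlr2, ran the other way. It had 58.3 CPM in the LGG, 68.6 in the E. coli, 64.4 in the PBS library and 48.3 in the untreated library, so all 3 gavaged libraries were above the untreated one. The log2 ratio was 0.27 (0.17 to 0.37) in LGG against untreated, 0.51 (0.41 to 0.61) in E. coli against untreated and 0.41 (0.30 to 0.53) in PBS against untreated. Against PBS it was -0.14 (-0.26 to -0.03) for LGG and 0.09 for E. coli, and LGG against E. coli gave -0.24 (-0.33 to -0.14). None of these ratios reached the size rule. Counts of Tlr2 were 26.3% of those of Tlr1 in the LGG, 20.5% in the E. coli, 22.1% in the PBS library and 39.3% in the untreated library, a ratio of counts within each library that needs no scaling and is not corrected for length.

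Tlr6, which pairs with Tlr2 for diacylated lipoproteins, was higher in the counts of both bacterial libraries, at 1.71 CPM (50 counts) in the LGG and 1.45 CPM (41.5 counts) in the E. coli library, against 0.872 CPM (14.5 counts) in the PBS library and 0.946 CPM (27 counts) in the untreated library. The log2 ratio was 0.95 (0.09 to 1.94) in LGG against PBS and 0.84 (0.15 to 1.59) in LGG against untreated, both short of the size rule. In E. coli against PBS it was 0.71 (-0.17 to 1.72) and in E. coli against untreated 0.60 (-0.12 to 1.37), so the counting error of these few reads included no difference. LGG and E. coli differed in Tlr6 by 0.24 (-0.38 to 0.87). These values use rounded counts. With unrounded counts the ratio was 0.90 in LGG against PBS and 0.65 in E. coli against PBS.

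Tlr1 and Tlr6 lie close together on the minus strand of chromosome 5 (65315919 to 65324797 for Tlr1, NM_001276445, and 65344334 to 65351273 for Tlr6, NM_011604, in mm9) and share a long stretch of coding sequence, which limits how far their counts can be separated. In the GENCODE vM21 transcripts, 454 of the 2976 windows of 50 bases in Tlr1 (15.3%) also occurred in Tlr6, all in the coding part. Between the first and the last exact match of at least 50 bases lay 792 bases, of which 7 differed (99.1% identical), in 6 runs of 53 to 229 bases. The start of that stretch is shown because it marks where reads of both genes become alike: below, 120 coding bases of each gene are aligned without gaps, in lower case where they are equal and in capitals where they differ.
Tlr1: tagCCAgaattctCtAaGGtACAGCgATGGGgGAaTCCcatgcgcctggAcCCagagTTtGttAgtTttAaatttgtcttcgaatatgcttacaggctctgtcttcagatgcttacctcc
Tlr6: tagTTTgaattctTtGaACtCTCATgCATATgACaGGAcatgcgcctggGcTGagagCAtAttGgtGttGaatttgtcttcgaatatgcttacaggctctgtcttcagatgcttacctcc
In these lines 31 of the first 70 bases differ and none of the last 50. The labels and file headers do not state how reads that match both genes were counted. Tlr6 counts were 2.93% of Tlr1 counts in the LGG, 2.11% in the E. coli, 1.35% in the PBS library and 1.96% in the untreated library. The values of Tlr6 are therefore uncertain beyond their counting error. Of the other members, Tlr3 shared 1.56% of its windows with another annotated gene, outside its coding part, and Tlr2, Tlr4, Tlr5, Tlr7, Tlr8, Tlr9 and Cd180 shared none.

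**Figure D2:**
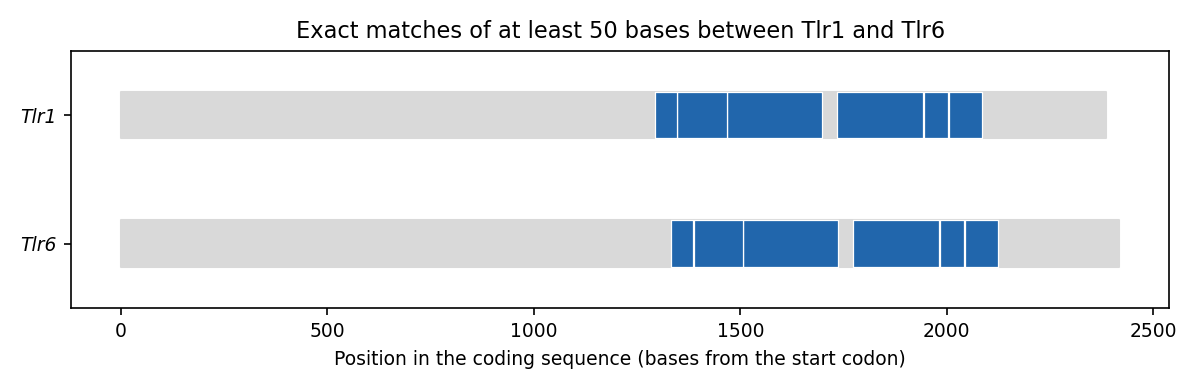
Coding sequences of Tlr1 (top) and Tlr6 (bottom) in bases from the start codon, in grey, with exact matches of at least 50 bases between them in blue. The 6 runs lie together in the later part of both genes and are 53 to 229 bases long.

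Among the sensors of Gram-negative products, Tlr4 varied little. Tlr4 had 21.8 CPM in the LGG, 21.6 in the E. coli, 24.6 in the PBS library and 24.5 in the untreated library, with both bacterial libraries slightly below the other libraries. Its log2 ratio against PBS was -0.17 (-0.36 to 0.01) for LGG and -0.19 (-0.37 to -0.00) for E. coli. Ly96, which encodes the MD-2 subunit that holds the lipid for Tlr4, had 4.24 CPM in the LGG, 4.27 in the E. coli, 3.99 in the PBS library and 4.41 in the untreated library, and none of its intervals excluded 0. Cd14, which hands lipopolysaccharide to that pair, had 29.8, 29.1 and 26.7 CPM in the LGG, E. coli and PBS libraries and 21.4 CPM in the untreated library. Lbp, the lipopolysaccharide-binding protein, went the opposite way, with 2.49, 2.69 and 2.87 CPM in the LGG, E. coli and PBS libraries and 4.90 CPM in the untreated library, and neither gene passed the size rule in any comparison.

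Cd180 was the one member past the size rule in any of the 6 comparisons. It had 24 counts in the LGG library (0.820 CPM, exact 95% Poisson interval 0.525 to 1.22), 61.5 in the E. coli library (2.13 CPM, 1.64 to 2.74), 21 in the PBS library (1.31 CPM, 0.810 to 2.00) and 24 in the untreated library (0.841 CPM, 0.539 to 1.25). The E. coli library was highest, the PBS library intermediate, and the LGG and untreated libraries almost equal. In LGG against E. coli the log2 ratio was -1.36 (-2.12 to -0.68), 2.57-fold lower, and 1 of 9 tested members was past the rule, where 0.36% of all 14450 tested rows were past it in either direction and 0.0969% were lower. In E. coli against untreated the ratio was 1.33 (0.64 to 2.09), 2.51-fold higher, again 1 of 9 members, where 2.35% of all tested rows were past the rule in either direction and 0.824% were higher.

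Cd180 is a gene of few reads, and such rows pass a 2-fold rule more often: among the 1009 rows with a mean of 1 to 2 CPM, 1.88% were past it in LGG against E. coli and 8.42% in E. coli against untreated. Both calls rest on the E. coli library. Without it, the Cd180 ratios were -0.66 (-1.58 to 0.24) in LGG against PBS, -0.04 (-0.91 to 0.84) in LGG against untreated and 0.62 (-0.28 to 1.54) in PBS against untreated, and no interval excluded 0. Against PBS, E. coli gave 0.70 (-0.03 to 1.49).

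The partner of Cd180 and the summed markers of B cells, which are known to carry it, had the signs of Cd180 in both called comparisons. They also had them in LGG against PBS and in PBS against untreated, but not throughout. In LGG against untreated Cd180 was at -0.04, Ly86 at 0.39 and the summed markers at 0.52 (0.43 to 0.62). In E. coli against PBS Cd180 was at 0.70, the summed markers at 0.11 and Ly86 at -0.11. Ly86, which encodes MD-1, had 3.35 CPM in the LGG, 4.03 in the E. coli, 4.36 in the PBS library and 2.56 in the untreated library, highest after PBS. Its ratio was -0.27 (-0.67 to 0.13) in LGG against E. coli and 0.65 (0.22 to 1.1) in E. coli against untreated. Cd180 counts were 24.5% of Ly86 counts in the LGG library (interval 15.0 to 38.6%), 53.0% in the E. coli library (38.3 to 72.7%), 30% in the PBS library (17.5 to 49.4%) and 32.9% in the untreated library (19.8 to 52.8%). The E. coli share was the highest, and its interval met those of the PBS and untreated libraries and just reached that of the LGG library.

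The 14 B cell and follicle markers, all of them detected in every library, summed to 74.4 CPM in the LGG, 89.2 in the E. coli, 82.8 in the PBS library and 51.8 in the untreated library. In LGG against E. coli 1 of the 14 was positive and none was past the rule, with a median log2 ratio of -0.22, where the median over all tested rows was -0.00. There 0.36% of all tested rows were past it. In each of the 6 comparisons between 49.3% and 51.0% of all tested rows were positive. In E. coli against untreated all 14 were positive, with a median of 0.85, where the median over all tested rows was 0.00. Cr2 (1.35), Fcer2a (1.29) and Cd79b (1.02), a complement receptor, a low-affinity IgE receptor and a chain of the B cell receptor, were past the rule there. Of all tested rows 2.35% were past it and 0.824% were higher. All 14 were also positive in PBS against untreated (median 0.71, 2 past the rule, 1.45% of all rows). The same held in LGG against untreated (median 0.58, 1 past the rule, 1.04% of all rows), and these comparisons share the untreated library. Relative to the sum of these markers, Cd180 counts were 1.1% in the LGG library (0.705 to 1.65%), 2.39% in the E. coli library (1.83 to 3.08%), 1.58% in the PBS library (0.975 to 2.43%) and 1.62% in the untreated library (1.04 to 2.42%). The intervals of the LGG and E. coli libraries did not meet on this scale, whereas those of the E. coli and untreated libraries did.

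Macrophage markers were steadier. The 12 genes, all detected in every library, summed to 221 CPM in the LGG, 232 in the E. coli, 227 in the PBS library and 231 in the untreated library. Siglec1, the sialoadhesin of tissue macrophages, was the 1 gene of that list past the rule in LGG against E. coli, at -1.13 (-1.81 to -0.51), with 1.06 CPM in the LGG and 2.34 CPM in the E. coli library. There 0.36% of all tested rows were past the rule in either direction and 0.0969% were lower. Siglec1 has few reads, with a mean of 1.79 CPM, and 1.88% of rows with a mean of 1 to 2 CPM were past it. Of the 12 genes 9 were negative and 3 positive in that comparison, among the latter C1qc at 0.23 (0.07 to 0.38). Cd180 counts were 0.371% of the macrophage sum in the LGG (0.237 to 0.552%), 0.919% in the E. coli (0.704 to 1.18%), 0.578% in the PBS (0.357 to 0.884%) and 0.364% in the untreated library (0.233 to 0.542%). The part of any cell type in the Cd180 difference was not tested.

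Of 13663 other protein-coding rows with a mean of at least 1 CPM, the 5 whose pattern over the 4 libraries was most like that of Cd180 included Hoxd12, Hoxd13, Vsig1 and Rhov. Likeness was the Euclidean distance between log2 CPM values centred on their mean over the 4 libraries, and it ran between 0.28 for Hoxd12 and 0.38 for Rhov. Hoxd12 and Hoxd13 are homeobox genes expressed towards the hind end of the gut. Hoxd12 had 0.820 CPM in the LGG, 2.00 in the E. coli, 1.18 in the PBS library and 0.981 in the untreated library, and Hoxd13, with far more reads, had 15.4, 39.1, 24.9 and 21.2 CPM. Vsig1, an immunoglobulin-domain protein of cell junctions, had 4.99, 9.50, 6.61 and 5.22 CPM in the same order of libraries. None of these 4 belonged to the marker or pathway lists, and with 4 points and so few Cd180 reads the likeness is a description. Hoxd13, like Cd180, was lowest in the LGG and highest in the E. coli library. The part of position along the gut in the Cd180 difference was not tested.

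**Figure D3:**
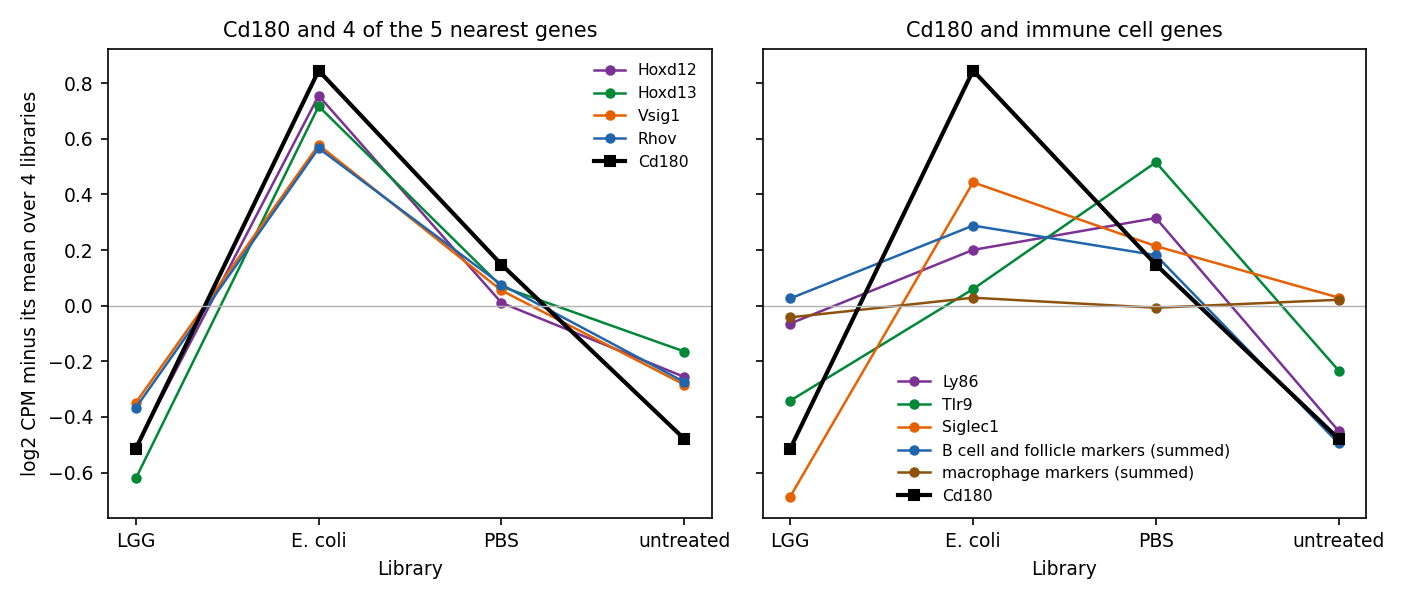
Log2 CPM minus its mean over the LGG, E. coli, PBS and untreated libraries for Cd180 (black), beside 4 of its 5 nearest genes (left) and beside Ly86, Tlr9, Siglec1 and the summed B cell and macrophage markers (right). Cd180 spans -0.51 in the LGG to 0.85 in the E. coli library, while the summed macrophage markers stay between -0.04 and 0.03.

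Cd180 lies on the plus strand of chromosome 13 (103483638 to 103496711 in mm9, NM_008533), and no other row of the table overlaps it or any other member. The promoter table from RefSeq, in build GRCm38.p6, held 8 of the 10 members, each as 250 bases before and 50 after an annotated start, with 2 starts for Tlr1, Tlr6 and Cd180. Those of Cd180, Tlr9 and Tlr6, at the first start listed, are printed because these 3 members, of few reads, had the ratios of largest size among the 9 tested. Each was searched on both strands for 4 motifs: GAGGAAG of the myeloid and B cell factor PU.1, the octamer ATTTGCAT of Oct factors, the interferon response core (GAAA, any 2 bases, GAAA) and the TATA box TATAAA. Matches are in capitals. They occur in 13.6%, 1.74%, 3.44% and 13.6% of the 32851 promoters of the table, in that order.
Cd180 (chr13:102693297-102693596, plus strand, GRCm38.p6): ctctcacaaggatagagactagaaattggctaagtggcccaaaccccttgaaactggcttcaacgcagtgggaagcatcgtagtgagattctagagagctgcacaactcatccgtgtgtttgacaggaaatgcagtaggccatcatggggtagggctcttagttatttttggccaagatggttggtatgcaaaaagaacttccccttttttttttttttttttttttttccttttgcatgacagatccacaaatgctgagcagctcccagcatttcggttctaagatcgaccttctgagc
Tlr9 (chr9:106222348-106222647, plus strand, GRCm38.p6): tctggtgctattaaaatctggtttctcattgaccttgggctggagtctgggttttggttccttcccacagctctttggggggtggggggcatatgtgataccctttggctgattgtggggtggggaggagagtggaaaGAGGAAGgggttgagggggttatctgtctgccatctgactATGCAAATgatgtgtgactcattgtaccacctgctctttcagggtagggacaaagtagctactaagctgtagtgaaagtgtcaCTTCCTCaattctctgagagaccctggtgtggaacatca
Tlr6 (chr5:64959117-64959416, minus strand, GRCm38.p6): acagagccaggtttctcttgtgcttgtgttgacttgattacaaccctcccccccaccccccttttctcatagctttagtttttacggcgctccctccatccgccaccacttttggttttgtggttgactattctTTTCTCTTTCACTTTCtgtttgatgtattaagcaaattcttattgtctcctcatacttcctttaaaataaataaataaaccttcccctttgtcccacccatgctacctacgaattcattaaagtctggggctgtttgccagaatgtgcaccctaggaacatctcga
Counted with the start as position 0, the Tlr9 window held PU.1 letters at -112 and 11 and the octamer at -72. The Tlr6 window held 2 overlapping interferon response cores at -116 and -110, and the window of its second start, not printed, held TATA letters at -180, -150 and -109. Neither Cd180 window held any of the 4. A match in these letters does not show that a factor binds there, and the start that is used in these colons was not measured.

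Tlr5, the flagellin receptor, was lower in all 3 gavaged libraries than in the untreated one. It had 3.90 CPM in the LGG, 3.51 in the E. coli, 4.36 in the PBS library and 6.10 in the untreated library. The log2 ratio was -0.64 (-1.0 to -0.30) in LGG against untreated, -0.79 (-1.16 to -0.43) in E. coli against untreated and -0.48 (-0.90 to -0.07) in PBS against untreated, values that share the untreated library and lie short of the size rule. Between the gavaged libraries no interval excluded 0. In E. coli against untreated, 4.28% of all tested rows had a ratio at least as far from 0 as that of Tlr5. Summed colon epithelium markers stood at 25947 CPM in the LGG, 22956 in the E. coli, 23423 in the PBS library and 23610 in the untreated library. Tlr5 counts were 0.0150% of the counts of these markers in the LGG, 0.0153% in the E. coli, 0.0186% in the PBS library and 0.0258% in the untreated library, so all 3 gavaged libraries were below the untreated one on this scale too. The part of epithelium in the Tlr5 values was not tested.

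Of the endosomal receptors, Tlr3 was the steadiest, with 28.3 CPM in the LGG, 28.6 in the E. coli, 27.4 in the PBS library and 31.3 in the untreated library. Its largest log2 ratio was -0.20 (-0.36 to -0.03), in PBS against untreated. Tlr9, the receptor for unmethylated CpG DNA, was highest after PBS, with 1.30 CPM in the LGG, 1.72 in the E. coli, 2.37 in the PBS library and 1.40 in the untreated library. The ratio was -0.86 (-1.55 to -0.18) in LGG against PBS and 0.75 (0.08 to 1.43) in PBS against untreated, which both use the PBS library. In LGG against untreated, without it, Tlr9 was at -0.11 (-0.79 to 0.57).

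Tlr9 is known from B cells and plasmacytoid dendritic cells, and its counts were 1.75% of the summed B cell and follicle markers in the LGG library (1.23 to 2.40%), 1.93% in the E. coli library (1.43 to 2.55%), 2.86% in the PBS library (2.01 to 3.95%) and 2.70% in the untreated library (1.92 to 3.70%). On that scale the intervals of all 4 libraries overlapped. Tlr7, a receptor for single-stranded RNA, had 1.16 CPM in the LGG, 1.31 in the E. coli, 1.25 in the PBS library and 1.68 in the untreated library, and none of its 6 intervals excluded 0. Tlr8 held 15.5 counts in the LGG, 15.5 in the E. coli, 4.5 in the PBS library and 12.5 in the untreated library. A 2-fold difference in Tlr8 was not resolved at this depth: in E. coli against PBS the ratio was 1.08 with an interval of -0.49 to 3.18. That ratio uses rounded counts, and with unrounded counts it was 0.88.

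The receptors that mice have beside the 10 members were also low. Tlr12, which like Tlr11 is known to bind profilin of apicomplexan parasites, had 3.49 CPM in the LGG, 3.65 in the E. coli, 3.74 in the PBS library and 2.87 in the untreated library. Tlr13, a receptor for bacterial ribosomal RNA, had 1.5, 1.79, 1.62 and 1.82 CPM in that order. Tlr11 was under 1 CPM on average, with 11, 15, 3 and 11.5 counts. Neither of the 2 tested genes passed the rule in any comparison, where between 0.277% and 2.35% of all tested rows did.

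Set side by side over the 6 comparisons, the 9 tested members gave 2 calls, both of Cd180. In LGG against PBS none was past the size rule, where 0.277% of all tested rows were, and the member median was -0.14, against -0.00 for all tested rows. In E. coli against PBS none was past it, where 0.415% of rows were, and the medians were 0.07 and 0.00. In PBS against untreated none was past it, where 1.45% of rows were, and the medians were -0.11 and 0.00, while in LGG against untreated, where 1.04% of rows were past the rule, none of the members was and the medians were -0.15 and -0.00. In LGG against E. coli the member median was -0.02 and in E. coli against untreated -0.13, beside -0.00 and 0.00 over all tested rows.

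Smaller differences were counted by intervals that exclude 0. In LGG against PBS 3 of 9 members met this, namely Tlr6 above 0 and Tlr1 and Tlr9 below it, where 27.4% of all tested rows met it. In E. coli against PBS Tlr4 did, where 19% of rows met it, and in LGG against E. coli Tlr1 and Cd180 did, both below 0, where 32.6% of rows met it. Comparisons with the untreated library held more: 5 of 9 members in PBS against untreated (38.5% of rows), 5 of 9 in E. coli against untreated (47.3%) and 6 of 9 in LGG against untreated (47.7%). In those 3 comparisons, which share 1 library, Tlr1 was above 0 and Tlr2 and Tlr5 below 0 each time.

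**Figure D4:**
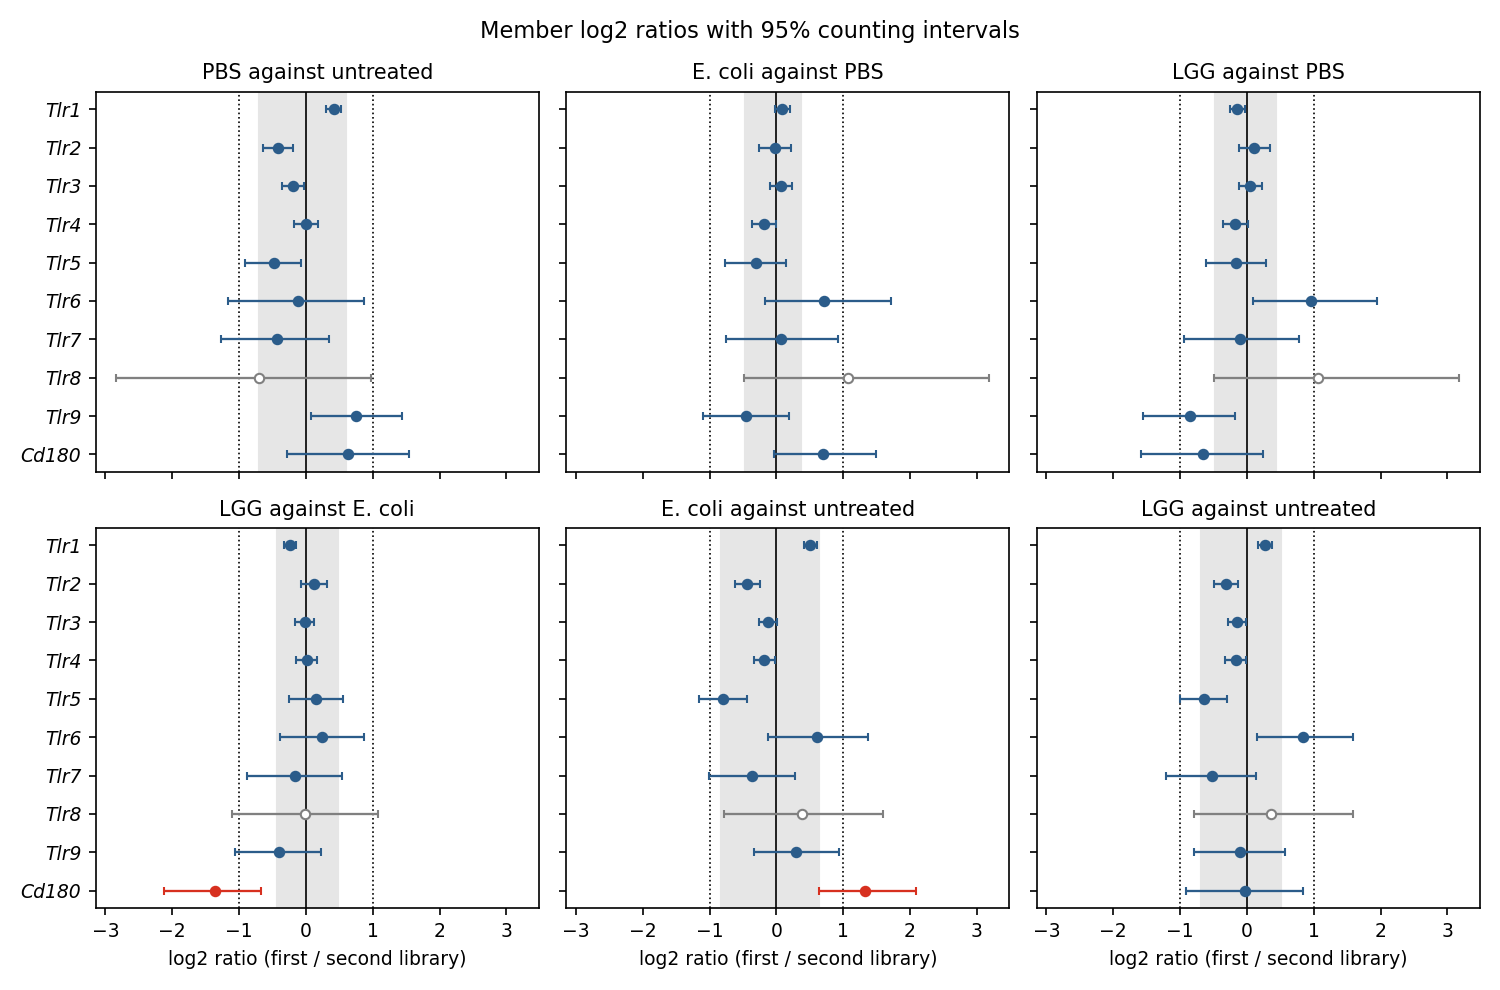
Log2 ratio of each member (first over second library) with its 95% counting interval in the 6 comparisons, with the central 95% of all tested rows in grey and the 2-fold limits dotted. Cd180 (red) passes the size rule in LGG against E. coli at -1.36 and in E. coli against untreated at 1.33; Tlr8 (open circle) had a mean under 1 CPM.

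The genes that carry the receptor signal gave no call, in a setting where between 0.277% and 2.35% of all tested rows passed the size rule in a comparison, so that few or no calls are the background for lists of this size. All 4 tested adaptors of 5 listed, among them Myd88 (40.9 CPM in the LGG, 39.8 in the E. coli, 38.9 in the PBS library and 41.6 in the untreated library), used by every member with a TIR domain except Tlr3, and Ticam1 (58.1, 53.5, 53.7 and 47.0 CPM), used by Tlr3 and Tlr4, stayed short of the size rule in all 6 comparisons. The interval of Ticam1 excluded 0 in each gavaged library against untreated, PBS included. Its log2 ratio was 0.31 (0.20 to 0.41) for LGG, 0.19 (0.07 to 0.32) for PBS and 0.19 (0.08 to 0.29) for E. coli. These comparisons share the untreated library, and 47.7%, 38.5% and 47.3% of all tested rows met this, in that order. The Ticam1 interval also excluded 0 in LGG against E. coli, at 0.12 (0.02 to 0.22), where 32.6% of rows met this. None of the 20 kinases, ligases and factors downstream passed the size rule either. Ube2v1, a ubiquitin-conjugating partner in the activation of Tak1 and the most abundant of them per length, had 168 CPM in the LGG, 176 in the E. coli, 172 in the PBS library and 166 in the untreated library. Irf7, which switches on interferon genes in endosomal signalling, had the ratio of largest size among them, with 94.7 CPM in the LGG, 68.1 in the E. coli, 90.2 in the PBS library and 94.7 in the untreated library. Its ratio was 0.48 (0.39 to 0.56) in LGG against E. coli and -0.48 (-0.56 to -0.39) in E. coli against untreated.

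Of the 9 co-receptors and receptor chaperones, 1 was past the rule in 1 comparison: Cd36, a scavenger receptor that helps Tlr2 and Tlr6, was at -1.16 (-1.33 to -0.99) in E. coli against untreated, where 2.35% of all tested rows passed, with 14.3 CPM in the E. coli and 32 CPM in the untreated library. Cd36 is also expressed by adipocytes, whose markers were past the rule in the same direction there in 5 of 5 cases, and their part in its value was not tested. Unc93b1, the chaperone that brings the endosomal receptors to their compartment, had 43.3 CPM in the LGG, 41.4 in the E. coli, 39.4 in the PBS library and 42.5 in the untreated library. None of the 8 negative regulators passed the rule, beside the same 0.277% to 2.35% of all tested rows, and nothing is read from that count. Tollip, which binds and restrains the receptors' kinases, had 96.4 CPM in the LGG, 86.5 in the E. coli, 92.2 in the PBS library and 96.3 in the untreated library, and Sigirr, an inhibitory receptor of epithelium, had 52.4, 48.3, 44.9 and 43 CPM in that order. Il1rl1, which encodes the IL-33 receptor ST2, was nearest to the rule at 0.89 (0.51 to 1.29) in LGG against PBS.

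Of 12 early target genes of the pathway 6 were tested, and they gave no call in LGG against PBS, E. coli against PBS or LGG against E. coli, with medians of 0.00, 0.04 and -0.07. In these comparisons 0.277%, 0.415% and 0.36% of all tested rows were past the rule. The 6 genes ran from -0.11 to 0.32, from -0.46 to 0.72 and from -0.40 to 0.54, in the same order. In E. coli against PBS 3 were positive and 3 negative, and the chemokine gene Ccl20 was highest at 0.72 (-0.06 to 1.59). Nfkbia, the inhibitor induced first by NF-kB, had 70.7 CPM in the LGG, 68.7 in the E. coli, 64.6 in the PBS library and 73.7 in the untreated library. Cxcl10, a chemokine of the interferon response, was past the rule in LGG against untreated at 1.13 (0.40 to 1.94) and in PBS against untreated at 1.05 (0.20 to 1.96). In these 2 comparisons 1.04% and 1.45% of all tested rows were past the rule. Cxcl10 has few reads, with a mean of 1.32 CPM, and among rows with a mean of 1 to 2 CPM the shares were 5.05% and 7.14%. Cxcl10 was measured at 1.71 CPM in the LGG, 1.17 in the E. coli, 1.62 in the PBS library and 0.771 in the untreated library.

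**Figure D5:**
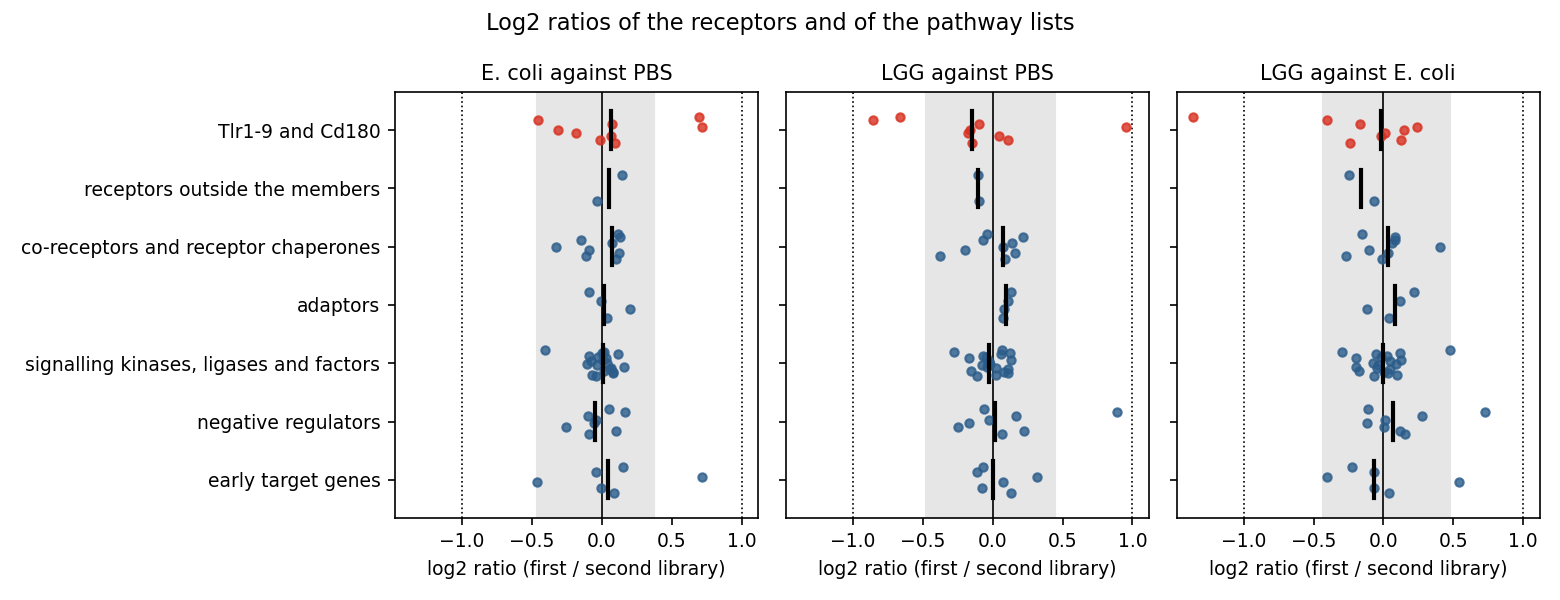
Log2 ratios (first over second library) of the 9 tested members (red) and of the genes of 6 pathway lists (blue), 1 point per gene with a mean of at least 1 CPM, with list medians as bars and the central 95% of all tested rows in grey. The panels show E. coli against PBS, LGG against PBS and LGG against E. coli, and within them Cd180 at -1.36 in LGG against E. coli is the point beyond the dotted 2-fold limits.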

How the data were processed

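RNA of whole colon from 4 groups of germ-free mice was sequenced, 1 library per group. Per the labels' protocols, RNA was extracted with TRIzol, treated with DNase on columns and made into libraries with the Illumina TruSeq RNA v2 kit. TopHat2, HOMER and the build mm9 are named in the submitters' processing notes, with no version or role. The authors deposited expected counts per RefSeq gene in steps of 0.5, and they were rounded to whole numbers; the labels and headers do not state whether strand was used. Transcript lengths are those listed per the file headers, in a column whose unit is read as bases, and give CPM per kb.

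Library sizes were scaled with TMM factors (edgeR 4.0.16, R 4.3.3), and ratios used a prior of 0.5 counts (Python 3.11.15, numpy 2.4.6, scipy 1.17.1, pandas 2.3.3, matplotlib 3.10.9). Ratio intervals are Clopper-Pearson intervals of the 2 counts at 95%, and level intervals are exact Poisson. No molecular identifiers are described, so reads are not independent molecules and both cover counting error only. The size rule was applied to all 14450 rows with a mean of at least 1 CPM and checked on simulated data. No p-value was computed, since each condition has 1 library. Members and lists were chosen with earlier results of these data known. All 10 members are named; of each pathway list, genes past the rule and otherwise the most abundant by level per length are named, and others named were chosen after their values were seen. Of the 5 genes nearest to Cd180, 1 is not reported here. Promoter sequences are RefSeq's, in GRCm38.p6, and coordinates of genes are the file's, in mm9. Alternatives were DESeq2 1.42.0 size factors, library totals, upper-quartile factors, other filters, a 1.5-fold threshold, a prior of 5 counts and unrounded counts.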

Additional observations from a re-analysis of the deposited data

Results flagged for a closer look

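Cd180 was set apart because the bacterial libraries differed from PBS in opposite directions, with LGG at -0.66 and E. coli at 0.70, and were 2-fold or more apart from each other: LGG against E. coli gave a log2 ratio of -1.36. The difference was not tested, since each condition has 1 library, and the intervals of both ratios against PBS include 0.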

How the results depend on the processing

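No paired analysis was possible because each condition has 1 library. With DESeq2 size factors, library totals, upper-quartile factors, no expression filter, a prior of 5 counts and unrounded counts, the number of members past the size rule kept its value in all 6 comparisons. A 1.5-fold threshold gave 1 in PBS against untreated (Tlr9 higher; 5.88% of rows), 2 in LGG against PBS (Tlr6 higher, Tlr9 lower; 1.57%), 2 in E. coli against untreated (Tlr5 lower, Cd180 higher; 8.3%) and 2 in LGG against untreated (Tlr5 lower, Tlr6 higher; 5.27%). With a mean of at least 5 CPM, 4 members were left to test and the calls of Cd180 were lost by construction, giving 0 in LGG against E. coli and 0 in E. coli against untreated. All 300 recomputed member ratios stayed within their counting intervals. Cd180 ran from -1.38 to -1.22 in LGG against E. coli and from 1.19 to 1.33 in E. coli against untreated. The largest shift of a ratio was 0.364 with a prior of 5 counts (Tlr8 in E. coli against PBS, at 0.71 in place of 1.08), 0.201 with unrounded counts and 0.0995 with another scaling. Of the recomputed values 3 changed sign, all of Tlr4 in PBS against untreated or LGG against E. coli, where the main ratio was at most 0.0122 in size. In the PBS library, the shallowest, 1 count is 0.0623 CPM.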

Other observations

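The 12 early target genes of the receptors ranged widely in level, and 6 of them had a mean of at least 1 CPM, for instance Birc3 with 44.3 CPM in the LGG, 51.6 in the E. coli, 46.5 in the PBS library and 34.2 in the untreated library. Those with the fewest counts were Il6, Cxcl2 and Cxcl1. Il6 had 0 counts in the LGG, 1 in the E. coli, 0.5 in the PBS library and 1 in the untreated library, and the neutrophil chemokine gene Cxcl2 had 1, 0.5, 1 and 0.5. Cxcl1 had 6.5 counts in the LGG, 11.5 in the E. coli, 6 in the PBS library and 6.5 in the untreated library. A count of 0 allows up to 0.103 CPM in the LGG library.

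Markers of neutrophils differed in level. S100a8 had 1 count in the LGG, 1 in the E. coli, 0.5 in the PBS library and 0 in the untreated library, and S100a9 had 1 count in the LGG library and 0 in the others. Csf3r, the receptor for a neutrophil growth factor, had 32.5 counts in the LGG, 33.5 in the E. coli, 17.5 in the PBS library and 29 in the untreated library, and Cxcr2, a chemokine receptor, had 22.5, 29.5, 14 and 20.5. The 6 neutrophil genes found in the table summed to 1.98 CPM in the LGG, 2.31 in the E. coli, 2.12 in the PBS library and 1.89 in the untreated library.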
